A study of Arabidopsis thaliana with 12 samples.

Results

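The response of GmVP2 overexpressor roots to low phosphate is described here. The line, labelled OX3, is Arabidopsis thaliana carrying the soybean gene GmVP2, which encodes a vacuolar proton pyrophosphatase, a pump that acidifies the vacuole with the energy of pyrophosphate. The comparison takes 6 of the 12 root libraries, 3 from OX3 seedlings kept for 10 days on solid MS medium with 6.25 µM phosphate (low; replicates 1, 2 and 4) and 3 from OX3 seedlings with 1250 µM phosphate (normal; replicates 2, 3 and 4). The other 6 libraries, from wild-type Columbia-0 roots under the same treatments, are the reference for tests of a difference between the genotypes, and they also enter the minimum level and the estimate of the spread for the OX3 comparison. All OX3 plants carry the transgene at both phosphate levels, so an effect of it that is equal at both is not part of the low phosphate comparison. An effect that depends on the phosphate level would remain in it. OX3 is 1 transgenic line, the sources used here do not give the promoter that drives GmVP2, and the transgene itself is not analysed here. Of 25941 genes, 18910 had a mean of at least 1 RPKM (reads scaled to the length of the exons and to the size of the library) over the 12 libraries and were tested, and 7031 were below it, with means of 1.000027 just inside and 0.999966 just outside the minimum.

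Phosphate starvation in Arabidopsis roots is controlled mainly by PHR1, a transcription factor that binds a short palindromic motif upstream of many starvation genes. SPX proteins bind inositol pyrophosphates when phosphate is ample and then hold PHR1 back. When phosphate is scarce the root makes high-affinity phosphate transporters, secretes acid phosphatases and nucleases, replaces membrane phospholipids by galactolipids and sulfolipids, and lengthens its root hairs.

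The recovered totals were 18786419 to 19941944 reads for OX3 at normal phosphate and 18312322 to 18930428 at low phosphate. Within the groups, the log2 differences between OX3 libraries had an SD of 0.171 to 0.212 over genes. On a principal component analysis of the 6 libraries the first component held 89.1% of the variance and parted the phosphate levels. The second held 3.8% and set replicate 4 at low phosphate (-16.3) apart from replicates 1 and 2 (9.51 and 6.66). The labels do not say whether the libraries of a group came from separate plants, so p-values measure the spread between these libraries, which may be technical. Root identity was checked on 13 cell markers, of which 12 passed the minimum, among them CASP1 of the endodermis (mean 71.8 RPKM at normal phosphate), COBL9 of hair cells (3.46) and SMB of the root cap (2.64). Of 10 markers of shoot tissue outside photosynthesis, 7 were in the table, among them STM, SPCH and TMM. They summed to 0.162 to 0.441 RPKM at normal and 0.349 to 0.515 RPKM at low phosphate, and none reached the minimum.

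Low phosphate changed 8895 genes in OX3 roots, 47% of those tested, at an adjusted p below 0.05 (limma on log2(RPKM + 1), Benjamini-Hochberg over all tested genes, two-sided). Changes are given on that scale, low minus normal, which understates the change of genes with low values, and the median SE over the tested genes was 0.09 (3 libraries a group). Of these, 4397 rose (23.3%) and 4498 fell (23.8%), and the median log2 change over all tested genes was -0.02. Most changes were small, with a median of 0.49 among the genes that rose and -0.42 among those that fell. Large changes were more often rises, with 856 genes at least 2-fold higher (4.53%) against 634 at least 2-fold lower (3.35%). At least 8-fold there were 79 against 15, and at least 32-fold 19 against 1. The folds of these classes, here and for the motif below, are of RPKM + 1. Genes with low values at either phosphate level can thus be counted in a smaller class than their RPKM would give. The 6 libraries did not overlap between the phosphate levels for 10850 genes (57.4%). The genes called at least 2-fold higher took 2.19% to 2.35% of the summed RPKM of a library at normal phosphate and 9.18% to 9.59% at low phosphate. Those called at least 2-fold lower went from 5.48% to 5.57% down to 1.7% to 1.77%. In bulk tissue, a gene that falls because fewer cells of a type are present cannot be told apart from one that falls within each cell.

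**Figure D1:**
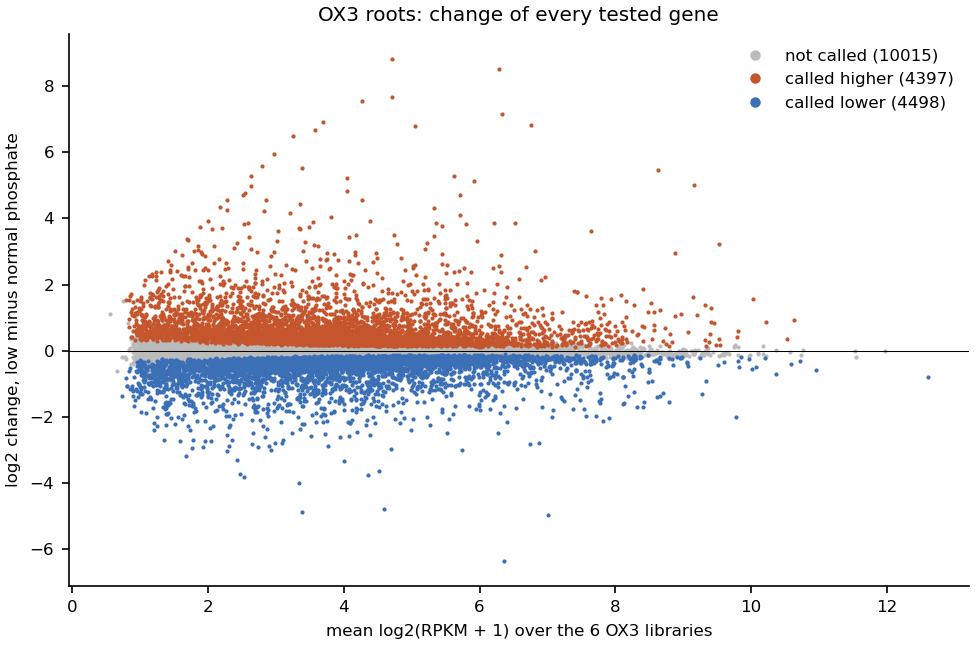
Log2 change from normal to low phosphate (vertical axis) against the mean log2(RPKM + 1) over the 6 OX3 libraries (horizontal axis) for 18910 tested genes, 1 point a gene. The 4397 genes called higher reach much larger changes than the 4498 called lower, and the genes not called lie along 0.

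The 15 largest rises held members of the phosphate signalling, salvage and lipid lists beside genes in no list. PECP1 (AT1G17710), a phosphatase of phosphoethanolamine and phosphocholine, had 0.194, 0.496 and 0.0365 RPKM in the 3 libraries at normal phosphate against 578, 548 and 541 at low phosphate. The non-coding RNA IPS1 (AT3G09922) went from 2.46, 3.77 and 3.05 to 1454, 1451 and 1561 RPKM. For both genes every library at low phosphate lay far above those at normal phosphate, with log2 changes of 8.82 ± 0.14 (SE, limma adjusted p = 5.84e-15) and 8.52 ± 0.11 (limma adjusted p = 1.51e-15). SPX3, a sensor gene of the SPX family, went from 0.755, 0.687 and 1.09 to 393, 373 and 349.6 RPKM (log2 7.66). The carnitine transporter gene OCT1 went from 0.493, 0.324 and 0.413 to 269, 254 and 259.8 RPKM (log2 7.54). PS2, annotated as an inorganic pyrophosphatase, rose from 4.19, 7.22 and 6.21 to 1027, 954 and 928 RPKM (log2 7.17). In each of these genes the lowest library at low phosphate was above the highest at normal phosphate by a wide gap. The 15 largest rises were drawn from called genes without overlap between the phosphate levels, so the separation itself was fixed by that choice. Uncharacterised genes were among the 15 largest rises too. AT5G20790 went from 2.01, 1.81 and 2.70 to 348, 338 and 349 RPKM (log2 6.78) and AT3G25240 from 0.0474, 0.374 and 0.134 to 123, 118 and 118 RPKM (log2 6.68). AT4G36850, annotated as a probable vacuolar amino acid transporter, went from 0.462, 0.516 and 0.638 to 72.1, 64.2 and 72.2 RPKM (log2 5.52).

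Of the 15 largest rises, 3 were listed at 0 in all 3 libraries at normal phosphate, so no fold is given for them. AT2G45135, annotated as a RING/U-box protein gene, had 90.8, 92.5 and 84.5 RPKM at low phosphate; on chromosome 2 it begins 970 bases after the end of SPX3 on the same strand. The miR827 precursor had 62.4, 65.4 and 54.3 RPKM and the miR399c precursor 51.7, 44.1 and 44.5 RPKM at low phosphate. Each was above 0 in every library at low phosphate, which the choice of genes without overlap required.

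**Figure D2:**
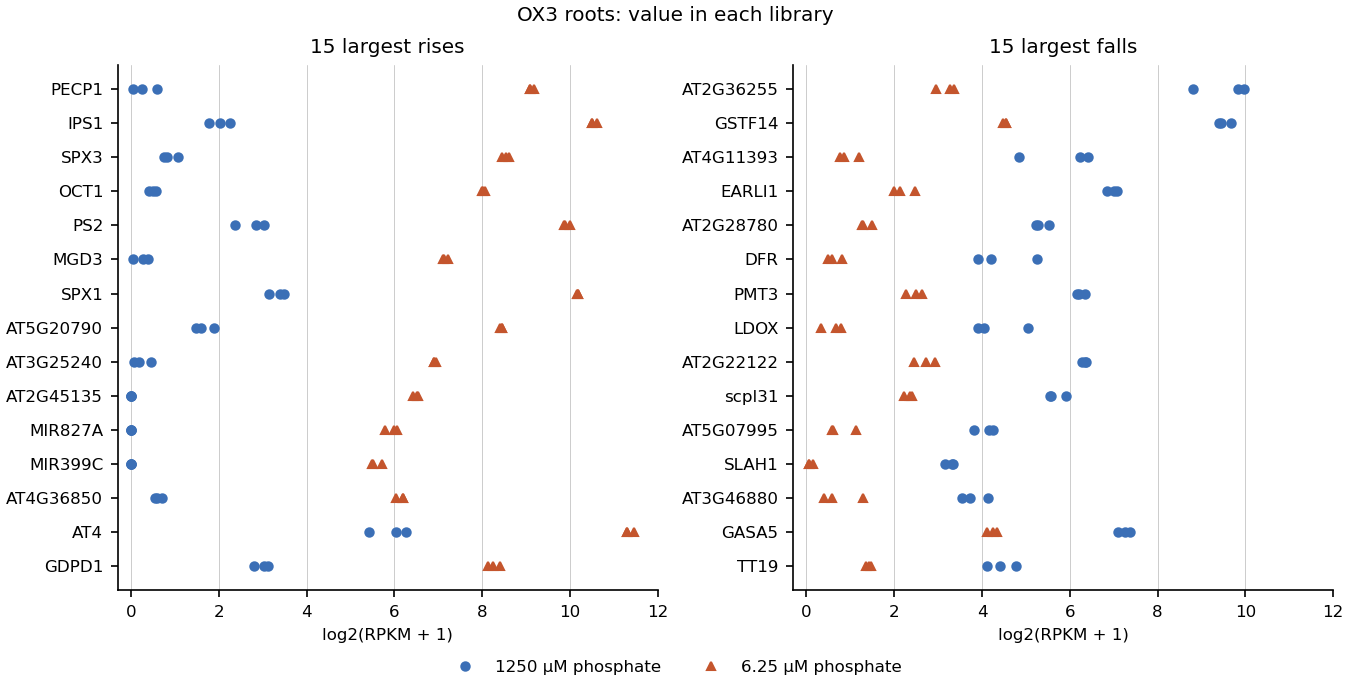
log2(RPKM + 1) in each OX3 library (horizontal axis) for the 15 genes with the largest rise and the 15 with the largest fall, circles for 1250 µM and triangles for 6.25 µM phosphate. The phosphate levels do not overlap for any of these genes, which were chosen among called genes without overlap.

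By abundance the ranking was different. The gene that gained most RPKM was AT2G05510, which encodes a glycine-rich protein, from 103, 96.1 and 99.9 to 3089, 3079 and 3537 RPKM. The non-coding RNA AT4 followed, from 41.7, 75.7 and 64.5 to 2542, 2544 and 2798 RPKM, and then the defensin-like protease inhibitor gene ATTI4, from 227, 237 and 256 to 2265, 2266 and 2291 RPKM. The other genes among the 10 largest gains were IPS1, SPX1, PS2, the osmotin gene OSM34 (mean 603 to 1803 RPKM), AT3G53980, of the lipid transfer protein superfamily (170.2 to 1309.7), the metallothionein gene MT2B (1146 to 2206) and the annexin gene ANN1 (884 to 1599.6). For OSM34, MT2B and ANN1 the log2 changes were modest at 1.58, 0.94 and 0.85, and each passed the test.

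The PHR1 motif was more frequent upstream of the genes that rose most. The motif searched was GNATATNC, which is its own reverse complement, so 1 search reads both strands, in the 250 bases before the annotated start of each gene in TAIR10.1. It stood in 1044 of 18856 windows of tested genes (5.54%), in 4.79% of those of genes not called and in 4.48% of those of genes that fell. Among the genes that rose it stood in 8.31% of windows, and in 14% at a rise of at least 2-fold, 23.7% at 4-fold, 35.4% at 8-fold and 45.7% (16 of 35) at 16-fold. Falls showed no such gradient, with 4.13% at 2-fold and 4.17% at 4-fold. Of the 15 largest rises 8 had the motif in the window (SPX3, GDPD1, AT3G25240, MIR827A, AT4, PS2, AT4G36850 and MIR399C), and of the 15 largest falls 0. PECP1, IPS1, OCT1, MGD3, SPX1, AT5G20790 and AT2G45135 had no match in these 250 bases.

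**Figure D3:**
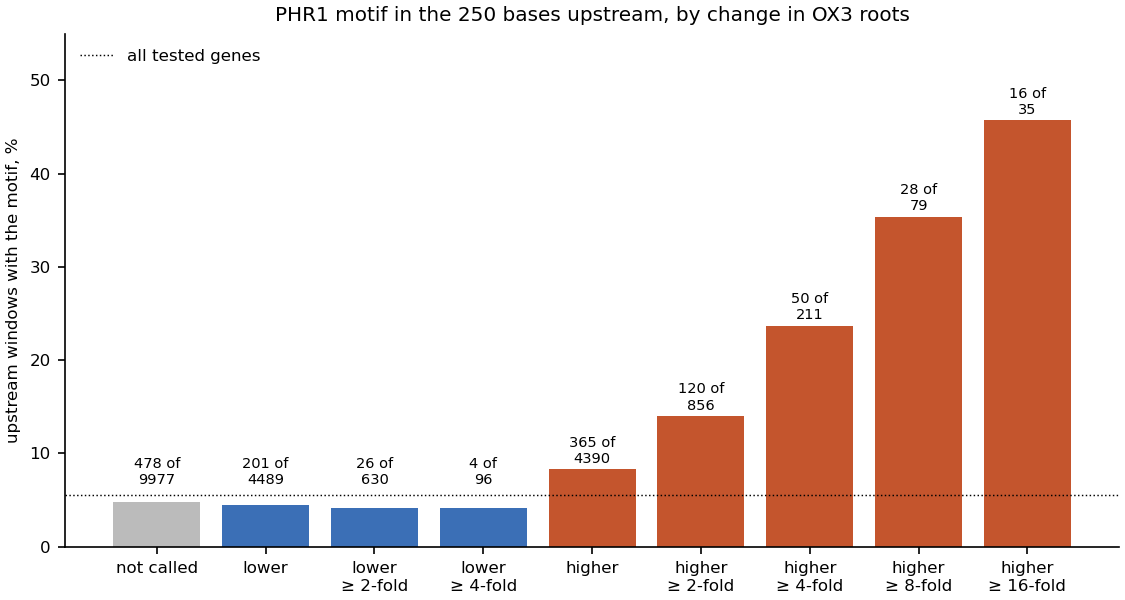
Share of upstream windows with the PHR1 motif (vertical axis, %) by how the gene changed in OX3 roots, with the counts above each bar and a dotted line at 5.54% for all tested genes. The share grows with the size of the rise, from 8.31% of all risen genes to 45.7% of those at least 16-fold higher, and stays under 5% for genes that fell.

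Windows of 5 genes are shown because they carry the motif in different arrangements, once in AT4, in a pair in SPX3, GDPD1 and AT3G25240, and 3 times in the miR827 precursor gene. The sequence is TAIR10.1, given 5′ to 3′ on the strand of the gene, ending at the base before the annotated start, with each match in capitals. A match is a description of the sequence. For MIR827A the window ends at the start of the annotated precursor, which need not be the start of transcription.
SPX3 (chr2:18606160-18606409, + strand): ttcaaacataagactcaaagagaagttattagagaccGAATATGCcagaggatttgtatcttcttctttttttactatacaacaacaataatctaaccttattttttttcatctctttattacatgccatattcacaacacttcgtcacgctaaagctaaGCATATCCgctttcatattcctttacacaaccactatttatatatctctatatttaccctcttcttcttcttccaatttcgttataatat
GDPD1 (chr3:350011-350260, - strand): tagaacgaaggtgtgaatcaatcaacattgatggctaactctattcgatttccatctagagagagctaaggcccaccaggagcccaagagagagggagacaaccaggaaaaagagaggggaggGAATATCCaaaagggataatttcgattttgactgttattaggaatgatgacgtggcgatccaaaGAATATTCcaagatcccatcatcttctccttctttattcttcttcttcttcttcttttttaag
AT3G25240 (chr3:9192243-9192492, + strand): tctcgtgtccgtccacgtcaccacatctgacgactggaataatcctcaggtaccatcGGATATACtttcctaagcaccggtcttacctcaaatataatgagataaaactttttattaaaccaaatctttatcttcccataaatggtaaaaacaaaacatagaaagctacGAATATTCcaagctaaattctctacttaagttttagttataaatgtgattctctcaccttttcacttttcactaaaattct
MIR827A (chr3:22122937-22123186, - strand): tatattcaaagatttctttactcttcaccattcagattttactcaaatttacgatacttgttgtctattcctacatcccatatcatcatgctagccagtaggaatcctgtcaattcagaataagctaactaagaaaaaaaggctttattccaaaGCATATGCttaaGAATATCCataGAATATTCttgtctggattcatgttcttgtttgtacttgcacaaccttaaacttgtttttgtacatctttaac
AT4 (chr5:894332-894581, + strand): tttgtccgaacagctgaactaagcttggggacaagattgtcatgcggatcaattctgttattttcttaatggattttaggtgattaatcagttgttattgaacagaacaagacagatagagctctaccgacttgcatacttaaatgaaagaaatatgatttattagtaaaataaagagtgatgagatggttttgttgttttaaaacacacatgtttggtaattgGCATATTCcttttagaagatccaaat
The matches begin 213 and 90 bases upstream in SPX3, 127 and 63 in GDPD1, 193 and 81 in AT3G25240, 96, 84 and 73 in MIR827A, and 26 in AT4.

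IPS1 and AT4 are target mimics, long non-coding RNAs that hold a site for miR399 with a bulge in the middle, so that the microRNA is bound and not able to cut. The mature microRNAs and both sites are shown because the precursor genes MIR399C and MIR827A and the mimics were among the 15 largest rises; the mature microRNAs themselves were not measured. Seeds (bases 2 to 8) are in capitals in the microRNAs. Bases that form A-U or G-C pairs with miR399c-3p are in capitals in the sites.
miR399c-3p (chr5:24962568-24962588, + strand): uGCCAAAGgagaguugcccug
miR827 (chr3:22122811-22122831, - strand): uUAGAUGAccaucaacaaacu
IPS1 site (chr3:3051224-3051247, + strand): uuGGGCAACUucuaUCCUUUGGCA
AT4 site (chr5:895149-895172, + strand): uuGGGCAACUucgaUCCUUUGGCA
In each site 18 of the 21 bases of the microRNA form A-U or G-C pairs and 3 bases bulge out. The lowercase u just before the bulge lies opposite a g of the microRNA, and pairs of g with u are not counted. miR399 targets PHO2 and miR827 targets NLA, which encode enzymes that mark phosphate transporters for breakdown. PHO2 fell from 73.5, 57.7 and 62.1 to 47.5, 45.5 and 40.5 RPKM (log2 -0.52 ± 0.10 SE, limma adjusted p = 0.00054). NLA fell further, from 23.6, 19.2 and 20.4 to 8.57, 9.74 and 8.09 RPKM (log2 -1.17 ± 0.08, limma adjusted p = 3.39e-08). In both, every library at low phosphate was below every library at normal phosphate.

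The phosphate signalling list as a whole, with IPS1, AT4, SPX3, PHO2 and NLA, changed in both directions. Of 13 tested members 8 rose and 4 fell (median 0.57, against -0.02 over all genes). This count and those of the lists below are to be read beside the 23.3% of all tested genes that rose and the 23.8% that fell. SPX1 went from 7.86, 10.2 and 9.48 to 1143, 1162 and 1163 RPKM (log2 6.84) and SPX2 from 19.1, 17.8 and 20.4 to 103, 101 and 100.4 RPKM (log2 2.35), while SPX4 was lower, at 8.34, 8.95 and 9.18 against 7.01, 7.48 and 6.84 RPKM (log2 -0.28, limma adjusted p = 0.0397). The 4 SPX genes thus moved in both directions. PHR1 itself had 33.6, 32 and 33 RPKM at normal and 31.3, 30.6 and 29.7 at low phosphate and did not pass (log2 -0.10, limma adjusted p = 0.112), and its relative PHL1 was slightly lower (log2 -0.24, limma adjusted p = 0.0025). The regulators WRKY75 (log2 1.17), WRKY6 (0.57) and ZAT6 (0.41) rose. MYB62, another starvation regulator, was below the minimum, with 0.0402, 0.0396 and 0.0757 RPKM at normal and 1.84, 1.53 and 1.40 at low phosphate.

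Phosphate transport rose nearly as a block, with 13 of 14 tested members up and 1 down (median 2.56). PHT1;4, a high-affinity uptake transporter, went from 18, 19.9 and 17.4 to 306, 282 and 262 RPKM (log2 3.87). PHT1;5, which moves phosphate between tissues, went from 0.0848, 0.111 and 0.133 to 23.6, 21.7 and 16.2 RPKM (log2 4.26), and PHT1;8 and PHT1;9 rose by 3.72 and 2.46. PHT1;7 was listed at 0 in all 3 libraries at normal phosphate and had 7.21, 7.47 and 6.54 RPKM at low phosphate; it lies above the list median, which does not depend on its fold. PHT1;1, the most abundant family member at normal phosphate, went from 199.8, 162 and 181 to 292, 239.7 and 230.1 RPKM (log2 0.48) and PHT1;2 from 3.04, 2.94 and 2.84 to 96.4, 94 and 86.9 RPKM (log2 4.57). The exons of PHT1;1 have copies in other places of the genome for 42.5% of their 50-base stretches, and those of PHT1;2 for 47%, so how reads were divided among such copies is uncertain. PHF1, which helps PHT1 proteins leave the endoplasmic reticulum, rose by 1.85, and G3Pp1, a glycerol-3-phosphate permease gene, by 4.12 (11.6 to 217 RPKM). The xylem loader PHO1 rose only slightly, from 94.1, 78.5 and 80.4 to 101, 100.3 and 95.7 RPKM (log2 0.23, limma adjusted p = 0.0121), against 2.66 for its relative PHO1;H1. PHT2;1, a plastid transporter, was the member that fell (-0.83). PHT1;3 and PHT1;6 were below the minimum.

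Purple acid phosphatases, which free phosphate from organic compounds in the soil and vacuole, were divided. Of 22 tested members 14 rose and 4 fell (median 0.80), and 7 more were below the minimum. PAP17 went from 8.12, 9.90 and 9.71 to 294, 262 and 244 RPKM (log2 4.71) and PAP12, a major secreted enzyme, from 33.5, 33.8 and 34.5 to 189.6, 179 and 176 RPKM (log2 2.39). PAP1 (2.75), PAP7 (1.83) and PAP22 (3.32) rose too. Listed at 0 in all 3 libraries at normal phosphate were PAP14, which had 4.57, 3.39 and 4.24 RPKM at low phosphate, PAP23 with 13.4, 11.5 and 12.6, and PAP25 with 4.09, 3.98 and 3.39, each above the list median. PAP10, which acts at the root surface, rose by 1.07. PAP26, the main vacuolar enzyme and the most abundant member at normal phosphate, fell from 121, 124 and 123 to 94.9, 100 and 93.1 RPKM (log2 -0.35), and PAP3 fell by most (-1.12). The ribonuclease gene RNS1 rose from 4.37, 5.90 and 5.69 to 22, 25.3 and 25.4 RPKM (log2 2.0) and the nuclease gene BFN1 from 9.19, 7.25 and 8.15 to 27.8, 22.9 and 24.7 RPKM (log2 1.51). With PECP1 and PS2 they complete the salvage list, in which 4 of 4 rose.

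Genes of membrane lipid exchange rose in 15 of 18 tested cases and 1 fell (median 2.65). On the galactolipid side MGD3 went from 0.0276, 0.3 and 0.208 to 148, 138 and 138 RPKM (log2 6.92) and MGD2 from 1.53, 1.98 and 1.86 to 39.4, 34.1 and 33.4 RPKM (log2 3.71), while MGD1, the constitutive synthase of plastids, rose by 0.34. On the sulfolipid side SQD2 went from 8.70, 9.66 and 9.43 to 389.5, 348 and 333 RPKM (log2 5.12), with SQD1 at 3.09 and UGP3 at 2.91. For the breakdown of phospholipids, the phospholipase genes NPC4 (10.3, 10.5 and 11.7 to 174, 169 and 143 RPKM, log2 3.78) and PLDZ2 (0.484, 0.551 and 0.399 to 36.4, 32.9 and 32.8 RPKM, log2 4.57) rose. Their relatives did otherwise: PLDZ1 did not pass (log2 -0.06, limma adjusted p = 0.523) and NPC3 fell by 0.23 on the log2 scale (limma adjusted p = 0.00126). GDPD1, which releases glycerol-3-phosphate from deacylated phospholipids, went from 5.93, 7.67 and 7.17 to 340.5, 303 and 279 RPKM (log2 5.29); 44.7% of its exon bases also lie in exons of a neighbouring gene. The enzymes that make phosphocholine, PMT1 to PMT3, went different ways. PMT1 rose from 55.4, 63.4 and 56.7 to 144, 138 and 134 RPKM (log2 1.23), PMT2 fell from 364, 351 and 370.4 to 243, 229.6 and 248 RPKM (log2 -0.59), and PMT3 fell from 80.3, 70.6 and 72.5 to 4.64, 3.80 and 5.23 RPKM (log2 -3.77).

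The pyrophosphatases are the endogenous relatives of the transgene product or share its substrate. Of 9 tested 5 rose and 2 fell (median 0.33). PS2, annotated as an inorganic pyrophosphatase but counted in the salvage list, is not among the 9, and it rose by more than any of them (log2 7.17). AVP1, the vacuolar proton pyrophosphatase of Arabidopsis, had 191, 182 and 186 RPKM at normal and 243, 247 and 228 at low phosphate (log2 0.36 ± 0.06 SE, limma adjusted p = 0.000152). VHP2;2, a pump of the Golgi type, fell from 7.05, 7.62 and 7.55 to 4.21, 4.59 and 3.79 RPKM (log2 -0.70), and VHP2;1 did not pass (log2 -0.10, limma adjusted p = 0.265). Among the soluble enzymes PPa4 rose from 43, 41.2 and 44.2 to 162, 163 and 168 RPKM (log2 1.92), PPa3 by 1.40, PPa5 by 0.98 and PPa2 by 0.33. PPa6, the plastid enzyme, fell (-0.36), and PPa1 did not pass (log2 -0.14, limma adjusted p = 0.0755). The proton pumps and the soluble enzymes thus both held members that rose, fell and did not pass. For AVP1 the change in OX3 minus that in the wild type was -0.11 on the log2 scale (95% interval -0.28 to 0.07), and 0 of the 9 genes had an unadjusted p below 0.05 for that difference. Their intervals ran at the widest from -0.56 to 0.40, for PPa3.

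Genes for reactions that use pyrophosphate or bypass ATP in glycolysis rose in 10 of 15 cases and 1 fell (median 0.59). PPCK1, a kinase that activates phosphoenolpyruvate carboxylase, went from 30.8, 31.1 and 31.4 to 187, 184 and 196 RPKM (log2 2.56). The carboxylase genes PPC1 (1.23) and PPC2 (1.41) rose, while PPC3, the most abundant of them at normal phosphate, did not pass (156, 137 and 146 against 179.5, 152 and 133 RPKM, log2 0.07). Sucrose synthase SUS4 rose from 5, 5.64 and 6.09 to 39.6, 42.9 and 44.1 RPKM (log2 2.72). Of the 4 genes of the pyrophosphate-dependent phosphofructokinase only PFP-beta2 was higher, at 15, 13.9 and 14.2 against 43, 41.1 and 43.7 RPKM (log2 1.5); PFP-alpha2 was slightly lower (-0.17) and PFP-alpha1 and PFP-beta1 did not pass. At the plasma membrane AHA2, the main proton pump of roots, fell from 776, 752 and 736 to 285, 252 and 237 RPKM (log2 -1.55 ± 0.09 SE), and AHA3 fell by less (-0.38). AHA11 (0.51), AHA7 (0.38) and AHA4 (0.39) rose, and AHA1 did not pass (log2 -0.08).

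**Figure D4:**
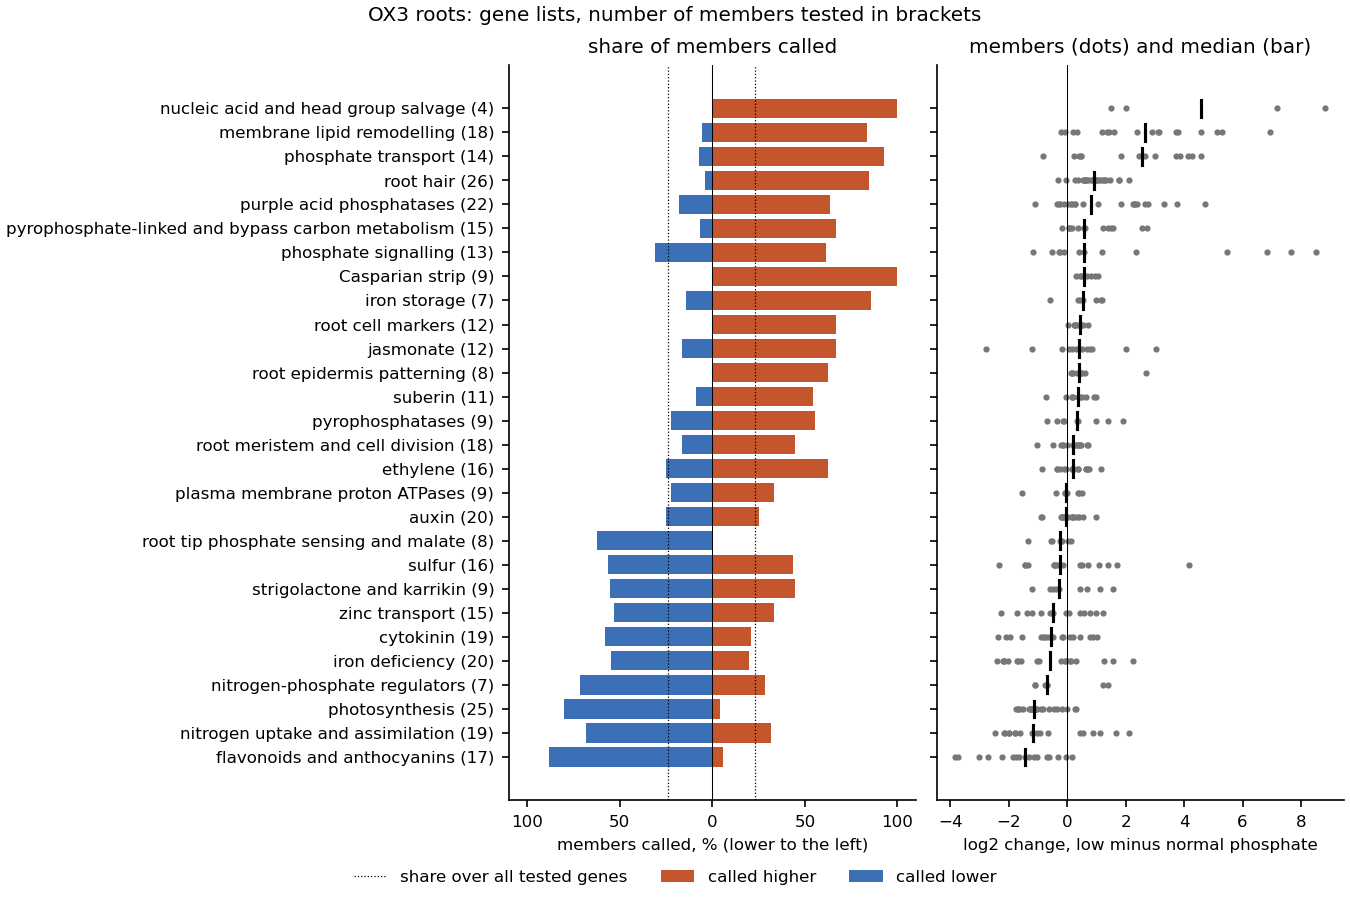
Gene lists with more than 3 tested members in OX3 roots, ordered by median: the share of members called higher (right) and lower (left), with dotted lines at the shares over all tested genes (23.3% and 23.8%), and the log2 change of each member with the median as a bar. Salvage (median 4.58), lipid remodelling (2.65) and phosphate transport (2.56) are at the top, and flavonoids (-1.45), nitrogen (-1.16) and photosynthesis (-1.14) are at the bottom.

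Genes for other nutrients changed as well. In the nitrogen list 13 of 19 tested members fell and 6 rose (median -1.16), and those that fell covered uptake, reduction and assimilation. The nitrate transporter and sensor NRT1.1 went from 422, 405 and 419 to 106, 106 and 102 RPKM (log2 -1.98) and nitrite reductase NIR1 from 464, 487 and 467 to 112, 105 and 104 RPKM (log2 -2.14). The ammonium transporter AMT1;3 went from 119.5, 102 and 102 to 19.3, 19.5 and 16.8 RPKM (log2 -2.48). The cytosolic glutamine synthetases parted: GLN1;2, one of the most abundant transcripts at normal phosphate, fell from 1832, 1760.4 and 1706 to 448, 430.3 and 439 RPKM (log2 -2.0), while GLN1;3 rose from 88.8, 95.7 and 85.2 to 190, 196 and 209 RPKM (log2 1.13) and GLN1;1 and GLN1;4 rose by 0.42 and 0.86. The asparagine synthetase gene ASN1 rose from 12, 13.8 and 13.7 to 61, 51.2 and 69.3 RPKM (log2 2.11). Of 7 regulators that link nitrogen and phosphate 5 fell, among them HRS1 (-1.10) and LBD38 (-1.09), and HHO2 (1.40) and HHO3 (1.21) rose. NRT2.2, NRT2.4, NRT2.5, AMT1;1 and AMT1;5 were below the minimum. For AMT1;1, 98.4% of the exon bases also lie in exons of an antisense lncRNA gene, and the sources used here do not say whether the counting used strand, so its level is uncertain.

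Iron deficiency genes mostly fell and storage genes mostly rose. Of 20 tested iron deficiency genes 11 fell and 4 rose (median -0.60). The regulator FIT went from 49.6, 44.1 and 43.5 to 9.61, 10.2 and 8.15 RPKM (log2 -2.18) and the nicotianamine synthase NAS1 from 190.5, 174 and 171 to 45.7, 35.5 and 37.4 RPKM (log2 -2.15). IRT1, the main iron importer, had 4.90, 3.76 and 4.36 RPKM at normal phosphate and was listed at 0 in all 3 libraries at low phosphate. NAS4 (-2.01) fell as NAS1 did, NAS2 did not pass (log2 0.10), and NAS3 went the other way, from 0, 0.0748 and 0.143 to 3.55, 4.05 and 4.82 RPKM (log2 2.25). IRT2 (1.27), the citrate exporter FRD3 (1.55) and the regulator PYE (0.30) rose. In the storage list 6 of 7 tested members rose, the ferritin gene FER1 from 242, 265 and 258 to 564, 547 and 601 RPKM (log2 1.16). The member that fell was VTL5 (-0.59), a vacuolar iron transporter-like gene. At the root tip, where iron and malate take part in phosphate sensing, LPR1 and PDR2 did not pass, ALMT1, a malate channel, fell from 128, 151 and 146 to 101, 103 and 88.7 RPKM (log2 -0.53), and STOP1, its regulator, by little (-0.20). In all, 5 of the 8 genes of that list fell and 0 rose, DTX42, a citrate exporter, by most (-1.33). With the replicate number as a block 3 of the 8 passed.

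Zinc and sulfate genes changed in both directions. Of 15 tested zinc genes 8 fell (53.3%) and 5 rose (33.3%), beside 23.8% and 23.3% of all tested genes. ZIP2 fell from 46.1, 41 and 41.6 to 8.97, 9.20 and 6.56 RPKM (log2 -2.26) and ZIP3 from 119, 123 and 123 to 52.4, 50.6 and 52.8 RPKM (log2 -1.22), while ZIF1 (1.21) and PCR2 (0.77) rose. The zinc exporter HMA2 had 6.96, 15.7 and 16.5 RPKM at normal phosphate, with replicate 2 well under the others, and 2.45, 3.19 and 3.37 at low phosphate (log2 -1.74). All 16 sulfur genes passed, 7 up and 9 down (median -0.26). SULTR1;3, a phloem sulfate transporter, rose from 1.21, 1.17 and 1.14 to 37, 40.2 and 37.4 RPKM (log2 4.17) and SULTR3;4 from 8.47, 7.70 and 7.48 to 28.3, 27.2 and 28.9 RPKM (log2 1.71). The uptake transporter SULTR1;2 fell from 129, 115 and 122 to 50.3, 44.5 and 39.6 RPKM (log2 -1.43), and SULTR2;2 (-2.35) and SULTR3;5 (-1.34) fell as well.

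Genes of root hairs rose. Of 26 tested members 22 rose and 1 fell (median 0.91), from the regulators RHD6 (1.0) and RSL2 (1.05) to wall proteins of the hair. PRP3 went from 12.7, 15.4 and 15.9 to 55.8, 56.8 and 44.1 RPKM (log2 1.76) and XTH14 from 25.5, 27.4 and 33.4 to 75.2, 85.8 and 62.8 RPKM (log2 1.34). The member that fell was RHD2, the NADPH oxidase of tip growth, at 13.2, 13.2 and 13.2 against 11.1, 10.8 and 9.12 RPKM (log2 -0.33). In 21 of the 22 hair genes that rose, replicate 4, the library apart on the second component, was the lowest at low phosphate. In all 22 it still lay above every library at normal phosphate. Such a lack of overlap held for 97.6% of all called genes, so it is no trait of the hair genes. Without replicate 4 at low phosphate 24 members passed in either direction, against 23 with it. ETC1, a small regulator that favours hair fate, rose from 2.56, 3.44 and 3.88 to 25.2, 24.2 and 31.1 RPKM (log2 2.70); with WER (0.47), which favours the hairless fate, and GL3 (0.60) it was among 5 of 8 tested patterning genes that rose, and 0 fell.

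Genes of the Casparian strip, the lignin seal of the endodermis, rose in 9 of 9 tested cases (median 0.56). CASP1 went from 70.7, 67.6 and 77.1 to 109.8, 98.2 and 107 RPKM (log2 0.54), its regulator MYB36 from 14.5, 13.4 and 13.8 to 24.8, 24.7 and 25.4 RPKM (log2 0.80), and CASP4 by most (1.06). In suberin synthesis 6 of 11 rose and 1 fell, with the reductase genes FAR4 (0.90) and FAR1 (0.98) up and the regulator MYB39 down (-0.72). The meristem and division list was mixed, 8 of 18 up and 3 down (median 0.21). WOX5, which marks the quiescent centre, rose from 2.02, 1.99 and 1.76 to 3.39, 4.41 and 3.62 RPKM (log2 0.71) and CDKB2;2 by 0.67, while the cyclin gene CYCD3;1 fell from 57.2, 54.2 and 53.6 to 25.7, 29.5 and 24.8 RPKM (log2 -1.02). Some of these calls were lost without 1 library, since of the 11 called members 6 passed without replicate 4 at normal phosphate, and 7 without replicate 1 or without replicate 2 at low phosphate. Of the 12 tested cell markers, several of which are also in these lists, 8 rose and 0 fell (median 0.43), COBL9 by most (0.73).

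Hormone genes changed with a different balance for each hormone. Over all tested genes 23.3% rose and 23.8% fell. Cytokinin genes mostly fell, 11 of 19 with 4 up (median -0.56). The synthesis genes IPT3 (14.4, 11.7 and 15 to 2.44, 2.82 and 2.98 RPKM, log2 -1.97) and CYP735A2 (23.6, 20.8 and 21.6 to 4.67, 2.69 and 3.37 RPKM, log2 -2.35) fell, as did the response regulator ARR7 (40, 44.4 and 38.4 to 8.32, 8.57 and 9.30 RPKM, log2 -2.11). ARR3 rose (1.01). In the strigolactone and karrikin list the receptor gene D14 rose from 20.5, 20.5 and 21.1 to 64.8, 58.5 and 67.1 RPKM (log2 1.57) and LBO by 1.14, and the repressor gene SMXL8, whose protein is removed through D14, fell from 17.1, 15.4 and 15 to 6.19, 6.77 and 5.77 RPKM (log2 -1.22); 4 rose and 5 fell of 9. Of 16 ethylene genes 10 rose and 4 fell, with the synthase gene ACS7 up (1.17) and the oxidase gene ACO1 down (-0.86). Auxin genes were even at 5 up and 5 down of 20, shares of 25% that lie near the 23.3% and 23.8% over all genes, with LBD16 up (0.97) and GH3.3 down (-0.88). In the jasmonate list 8 of 12 rose and 2 fell. AOC1 went from 0.134, 0.264 and 0.253 to 9.36, 8.02 and 9.45 RPKM (log2 3.03) and the repressor gene JAZ10 rose (2.01), whereas VSP2, a storage protein gene, fell from 304, 288 and 330.4 to 39.3, 52.5 and 41.1 RPKM (log2 -2.78).

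Among the 15 largest falls were genes of several families. AT2G36255, whose product is a putative defensin-like protein, went from 450, 914 and 1000.3 to 8.62, 6.72 and 9.27 RPKM (log2 -6.35 ± 0.31 SE, limma adjusted p = 7.38e-10). The glutathione transferase gene GSTF14 went from 809.7, 691 and 674 to 21.4, 22.3 and 22.5 RPKM (log2 -4.97) and EARLI1, a lipid transfer protein gene, from 134, 128 and 114 to 4.54, 3 and 3.41 RPKM (log2 -4.78). The anion channel gene SLAH1 was almost silent at low phosphate, with 9.13, 7.97 and 8.97 against 0.0362, 0.110 and 0.0354 RPKM (log2 -3.19), and the gibberellin-regulated gene GASA5 went from 152, 165 and 136 to 18, 16.2 and 19.2 RPKM (log2 -3.02). The defensin-like gene AT4G11393 had 27.9, 73.8 and 84 RPKM at normal phosphate. AT3G59930, a defensin-like gene outside the 15 largest falls, went from 296, 776 and 839 to 175, 137 and 226 RPKM. Of its 50-base stretches 22.2% occur elsewhere in the genome. Both genes shared with AT2G36255 a low value in replicate 2 at normal phosphate, the library that was also low for HMA2. That library was the lowest at normal phosphate for each of these defensin-like genes, so leaving it out could only deepen their falls. Without it they were -6.71 for AT2G36255, -5.37 for AT4G11393 and -2.19 for AT3G59930 on the log2 scale, against -6.35, -4.88 and -1.71 with it. In each of these families more genes rose than fell. Of 27 tested defensin-like genes 12 rose (44.4%) and 8 fell (29.6%), and of 56 lipid transfer genes 18 rose (32.1%) and 10 fell (17.9%). Of 55 glutathione transferase genes 21 rose (38.2%) and 16 fell (29.1%). The shares over all tested genes were 23.3% and 23.8%. The defensin-like gene ATTI1 rose from a mean of 19.2 to 195 RPKM (log2 3.31). By abundance the largest loss was BGLU23, the beta-glucosidase of endoplasmic reticulum bodies, from 8163, 8029 and 8513 to 5020.3, 4841 and 4363 RPKM (log2 -0.80), and its binding partner PBP1 fell as well (2428 to 1632 RPKM, log2 -0.57).

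Gene families grouped by words in their annotation are described next, to be read beside the 23.3% of all tested genes that rose and the 23.8% that fell. Class III peroxidases, which build and loosen walls, rose in 31 of 56 cases and fell in 9 (median 0.42), with PER52 from a mean of 6.96 to 88.7 RPKM (log2 3.49) and PER59 from 4.41 to 59.8 (log2 3.48). Germin-like genes rose in 9 of 15 cases, AT5G38910 from 8.11 to 178 RPKM (log2 4.32). Expansins were even, 8 up and 8 down of 22. EXLB1 rose from 38.6 to 322 RPKM (log2 3.02), and EXPA15 (378 to 95.1, log2 -1.98) and EXPB3 (303 to 89.2, log2 -1.75) fell. Of 45 histone genes 31 rose and 0 fell (median 0.35); HIS1-3, a linker histone gene, stood apart at 13.9 to 209.6 RPKM (log2 3.85). Cytosolic ribosomal protein genes changed little, with 189 of 216 not called, 2 up and 25 down (median -0.09), and of those 27 between 11 and 16 passed without replicate 3 or 4 at normal or replicate 1 or 2 at low phosphate. Among transcription factors 28 of 61 WRKY genes rose and 13 fell, with WRKY45 up (2.30), and 31 of 70 NAC genes rose and 11 fell, with NAC055 up (2.5). Of 73 sugar transporter genes 20 rose (27.4%) and 13 fell (17.8%), shares near those over all genes (23.3% and 23.8%), with the phloem loader SUC2 from 23.9 to 69.3 RPKM (log2 1.51) and SWEET14 up (2.57).

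Flavonoid and anthocyanin genes fell in 15 of 17 tested cases, and PAL1 alone rose (median -1.45). The early step CHS went from 992, 943 and 1002 to 462, 423 and 311 RPKM (log2 -1.31) and FLS1, for flavonols, from 253, 235 and 247 to 105, 97.4 and 69.4 RPKM (log2 -1.45). The late steps towards anthocyanins fell to near 0. DFR went from 13.9, 17.3 and 37.4 to 0.747, 0.395 and 0.486 RPKM (log2 -3.83 ± 0.38 SE), LDOX from 14.1, 15.6 and 32.3 to 0.734, 0.585 and 0.264 RPKM (log2 -3.74) and TT19, which carries anthocyanins to the vacuole, from 16.2, 20.2 and 26.2 to 1.78, 1.54 and 1.69 RPKM (log2 -3.01). In all 3 genes replicate 4 at normal phosphate was the highest library. In the wild type DFR had 8.41, 1.67 and 4.21 RPKM at normal and 0.913, 0.324 and 0.585 at low phosphate, so OX3 was above the wild type at normal phosphate in every library while the low phosphate libraries overlapped. The regulators MYB75 and TT8 were below the minimum. F3H was listed at 0 in all 6 OX3 libraries, and 93.8% of its exon bases also lie in exons of an antisense lncRNA gene.

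Photosynthesis genes, measured in roots, fell in 20 of 25 tested cases and rose in 1 (median -1.14). The light-harvesting gene LHCB1.3 went from 345, 342 and 344 to 88.8, 102 and 110.4 RPKM (log2 -1.77) and the Rubisco gene RBCS1A from 217, 207 and 229 to 62.5, 66.2 and 72 RPKM (log2 -1.69). PORB, of chlorophyll synthesis, went from 39.2, 34.9 and 42.1 to 11.6, 11.4 and 11.1 RPKM (log2 -1.68), and the regulator GLK2 fell too (-0.89). HEMA1 was the member that rose (0.25). The summed level of the 28 genes ran from 1062 to 1131 RPKM in OX3 at normal phosphate and from 399 to 439 at low phosphate, against 740 to 850 and 359 to 419 in the wild type. Markers of shoot tissue outside photosynthesis stayed under 1 RPKM in sum in every group, and YAB3 was listed at 0 in all 6 OX3 libraries. Of the 50-base stretches of LHCB1.3, 17% occur elsewhere in the genome, and its relative LHCB1.1 was below the minimum.

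Whether OX3 responded otherwise than the wild type was tested as an interaction in the same fit. Low phosphate changed 8692 genes in the wild type (46%). At an adjusted p below 0.05, 0 of 18910 genes differed (0% of those tested; smallest limma adjusted p = 0.379), and 1351 (7.14%) had an unadjusted p below 0.05. That share, the background for the lists, was 13.7% without replicate 2 of the wild type at low phosphate, 4.67% without replicate 4 of the wild type at normal phosphate and between these without any other library. With limma voom on recovered reads 0 genes differed and 1276 had an unadjusted p below 0.05. The 95% interval of the difference had a median half-width of 0.26 on the log2 scale, and for 98% of the genes it lay within ±1. These intervals are of single genes and are not adjusted for the number of genes tested. With 3 libraries a group, differences larger than the half-width could thus go uncalled, so 0 called genes does not mean that such differences are absent. The 5 smallest p belonged to CCL (0.09 in OX3 and 0.76 in the wild type), HSP23.5, BBX24 (0.96 and 0.38), AT1G11175 (1.17 and 0.65) and AT3G56500 (0.10 and -0.98), and none passed (limma adjusted p = 0.379 for each). The mitochondrial heat shock gene HSP23.5 fell in both genotypes, by -1.31 in OX3 and -2.07 in the wild type on the log2 scale. Without replicate 4 of OX3 at low phosphate it was the 1 gene called (difference 0.87, limma adjusted p = 0.0162).

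Among the phosphate lists, the median change was 0.57 in OX3 and 0.56 in the wild type for signalling, 2.56 and 2.49 for transport, and 2.65 and 2.63 for lipid remodelling. In the transport list 3 of 14 genes had an unadjusted p below 0.05 for the difference, each with the larger rise in OX3 and none called. Without replicate 2 of the wild type at low phosphate the count was 5, and without any other single library it was 2 to 4. The 3 genes were PHT1;1 (difference 0.38), PHT1;2 (0.50) and PHT1;4 (0.46), of which PHT1;1 and PHT1;2 share sequence. In each of the 3, OX3 was the lower genotype at normal phosphate in every library, and at low phosphate the ranges overlapped. PHT1;4 had 25.2, 25.4 and 24.4 RPKM at normal and 324, 251 and 256 at low phosphate in the wild type. Photosynthesis genes had medians of -1.14 in OX3 and -0.81 in the wild type. For 24 of the 25 tested members the difference was negative. An unadjusted p below 0.05 was found for 17, all of them in that direction, beside 7.14% of all genes in either direction. None was called. Without 1 library at a time the number ranged from 12 to 20. Of the 1351 genes with an unadjusted p below 0.05 over all tested genes, the difference was negative for 774 and positive for 577. Whatever the p, it was negative for 204 of 216 cytosolic ribosomal protein genes, 38 of 45 histone genes and 20 of 61 WRKY genes. For LHCB1.3 the difference was -0.39 (95% interval -0.65 to -0.13, limma adjusted p = 0.623), with 233, 231 and 206 RPKM at normal and 88.8, 75 and 92.7 at low phosphate in the wild type. OX3 was the higher genotype at normal phosphate in every library, and at low phosphate the ranges overlapped.

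Of 17 flavonoid genes 8 had an unadjusted p below 0.05 for the difference, 6 of them with a deeper fall in OX3, and none was called. For DFR the log2 change was -3.83 in OX3 and -1.68 in the wild type (difference -2.16, 95% interval -3.31 to -1.01, limma adjusted p = 0.61), for LDOX -3.74 and -2.15, and for TT19 -3.01 and -1.44. Without replicate 4 of OX3 at normal phosphate the difference for DFR was -1.75. MYB12, a regulator of flavonols, differed the other way, with a smaller fall in OX3, at -0.32 in OX3 and -1.0 in the wild type (difference 0.68, 95% interval 0.36 to 1.01, limma adjusted p = 0.58). With a pseudocount of 0.1 the number of flavonoid genes with an unadjusted p below 0.05 was 6 of 17, 4 of them with a negative difference. With limma voom, which changes the scale and the weights together, the number was 3 of 17, 1 of them with a negative difference. For photosynthesis it was 16 of 25 with either, all with a negative difference. The nitrogen genes had 6 of 19 with an unadjusted p below 0.05, but 3 without replicate 3 or replicate 4 of OX3 at normal phosphate, without replicate 2 of OX3 at low phosphate, without replicate 3 of the wild type at normal phosphate, or with the replicate block. Among the 6 was AMT1;3, whose fall was smaller in OX3 (-2.48 against -2.89, difference 0.41, 95% interval 0.13 to 0.70, limma adjusted p = 0.637). In the wild type AMT1;3 had 128, 147 and 142 RPKM at normal and 19.4, 15.2 and 19.1 at low phosphate. OX3 was below these values at normal phosphate in every library, and at low phosphate the ranges overlapped.

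**Figure D5:**
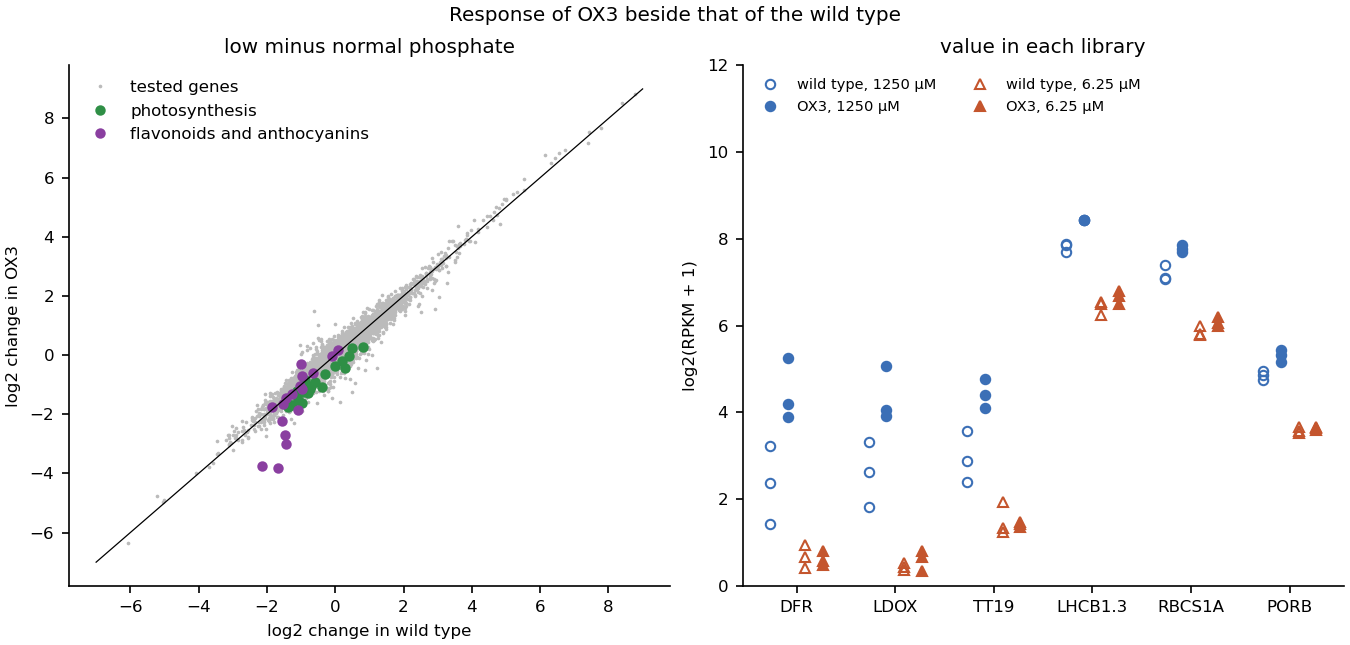
Left, log2 change from normal to low phosphate in OX3 against that in the wild type for all tested genes, with the photosynthesis and flavonoid lists coloured and the line of equal change. Right, log2(RPKM + 1) in each of the 12 libraries for 3 anthocyanin and 3 photosynthesis genes, open symbols for the wild type and filled for OX3; OX3 lies higher at 1250 µM, as for LHCB1.3 at 342 to 345 against 206 to 233 RPKM, and the genotypes overlap or nearly so at 6.25 µM.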

How the data were processed

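Total RNA of Arabidopsis roots was sequenced in 12 libraries, 3 for each of 4 groups. The authors deposited RPKM values for 25941 genes; HTSeq 0.6.0 and the build TAIR10 are named per the submitters' processing notes, with no role given, and the sources used here name no aligner. The values correspond to whole reads (99.49% to 99.52% of 25688 genes within 0.01 read), with recovered totals of 17670350 to 20418541 a library. Genes averaging 1 RPKM or more in the 12 libraries entered limma 3.58.1 in R 4.3.3, fitted to log2(RPKM + 1) for all 4 groups at once with its trend option. Calls needed a Benjamini-Hochberg adjusted p below 0.05 over 18910 genes, two-sided. Lists and families were described by counts and medians (Python 3.11.15, pandas 2.3.3, numpy 2.4.6). The scripts were tested on simulated data. Upstream windows and microRNAs were read from the RefSeq TAIR10.1 genome, in which 25688 gene IDs matched, 25683 of them with the same coordinates. No table of promoters was used, although the design had foreseen one.

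Named genes are the 15 largest rises and 15 largest falls among called genes whose groups do not overlap, the 10 largest rises and 10 largest falls in mean RPKM, up to 5 members of each list or family with the smallest adjusted p in each direction, all pyrophosphatases, and the 5 smallest p of the interaction. The members and lists were chosen with earlier results of these data known. Named outside this rule, and so chosen after their values were seen, are AHA1, FLS1, GLK2, GLN1;1, HMA2, IRT1, MGD1, MGD2, MYB12, MYB62, NAS2, NPC4, PAP10, PAP14, PAP25, PAP7, PHF1, PHO1, PHR1, PHT1;1, PHT1;5, PHT1;7, PHT1;9, PLDZ1, PPC3, RSL2, SMB, SQD1, WRKY6, WRKY75, ZAT6, and members below the minimum. Alternatives were other scaling, filter, pseudocount and minimum fold, the replicate block, no trend, the OX3 libraries alone, leaving out each library, and limma voom on recovered reads, which was chosen after seeing the data. Replicate numbers did not pair the libraries and were not used in the tests.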

Additional observations from a re-analysis of the deposited data

How the results depend on the processing

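The counts of called genes over the whole table and over all lists together kept within 1.5 times of their value, except as follows. A minimum absolute log2 change of 1 left 1490 genes called in OX3 (856 higher, 634 lower), 1473 in the wild type and 158 of 325 distinct list members, by its construction. Without 1 library at a time the count in OX3 ran from 7726 to 8523 (3778 to 4264 higher, 3867 to 4259 lower), in the wild type from 7711 to 8437 and among list members from 302 to 319. The difference between the genotypes then gave 0 to 1 gene. Of single lists and families, the meristem list went from 11 called to 6 without OX3 replicate 4 at normal phosphate and 7 without replicate 1 or 2 at low phosphate. Ribosomal proteins went from 27 to 11 to 16 without 1 of 4 libraries and to 8 with the replicate block. Laccases went from 9 to 5 without OX3 replicate 3 at normal or replicate 1 at low phosphate and with the block, root tip sensing from 5 to 3 with the block, and seed storage from 1 to 0 without OX3 replicate 1 at low phosphate. With no filter, 1 shoot marker was called. In OX3 the count was 8888 with median-ratio size factors (4561 higher, 4327 lower), 9409 with no filter, 8867 with a pseudocount of 0.1, 9176 with the OX3 libraries alone and 8980 with limma voom on recovered reads (4434 higher, 4546 lower). With the replicate number as a block it was 7176 (3612 higher, 3564 lower); deviations of same-numbered libraries correlated at -0.14 to 0.12 over 15 pairs, so the numbers showed no pairing. Of 5244 values of 437 named genes under these alternatives, 5153 kept direction and call, 88 kept direction and missed the threshold, and 3 turned sign, all of AT3G56500 (0.10, not called): -0.03 with the replicate block, and -0.004 without OX3 replicate 3 at normal phosphate and -0.02 without OX3 replicate 1 at low phosphate, within a range of -0.02 to 0.2 without 1 library; the cause was not tested. Depth limits the genes under 1 RPKM, which were not tested.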

Other observations

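How much of a gene's exons lies inside another gene went with its level. Over protein-coding genes the median RPKM in OX3 was 7.75 for the 17277 genes that share no exon base with another annotated gene, and 75.7% of them had a mean of at least 1 RPKM. It was 8.8 for 6284 genes that share less than 50% (83.5%), 0.239 for 341 genes that share 50% to under 90% (29.3%) and 0.0617 for 41 genes that share 90% or more (29.3%). Of the 4 list genes that share 50% or more, F3H (93.8%), AMT1;1 (98.4%) and ESB1 (84.3%) were under the minimum, and KCS2 (63.6%) was above it, at 2.97 to 6.79 RPKM in OX3. The sources used here do not say how the counting treated overlapping genes, and its part in these levels was not tested.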
